A study of Drosophila melanogaster with 4 samples.

Results

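The H3K27ac clusters described here lie on the X chromosome of the fruit fly, outside the 2 Mb next to the centromere. Acetylation of histone H3 at lysine 27 marks active promoters and enhancers. The authors mapped it in head nuclei by chromatin immunoprecipitation and sequencing (ChIP-seq) and deposited lists of enrichment clusters, which are stretches of the genome with more ChIP signal than input. Members were the clusters of the replicate 1 list that start before base 20422828 of the X and share at least 1 bp with a cluster of the replicate 2 list. There were 955 of them, out of 1028 clusters of replicate 1 on this stretch and 5898 in its whole list. Their counterparts in replicate 2, chosen in the same way, were 967 of 1097 clusters. All groups came from adult flies of mixed age, of the wild-type strain Oregon-R (Oregon-R-modENCODE). The flies were raised in population cages, with a cage cycle of 22 days given for all libraries, and no treatment is given. There were 2 ChIP libraries, made with an antibody from Active Motif, and 2 input libraries, each the background of the ChIP library of the same number. A head holds neurons, glia, photoreceptors, muscle and fat body, and the lists do not separate them. The labels give no sex for the flies and do not say that the replicates came from separate collections, so the spread between replicates may be technical. Read depth per library is unknown, and intervals on shares cover counting error only. Genes were not assigned to clusters, and the labelled tissue was not checked against marker genes, because no annotation of the build of the files (FlyBase release 5) was used here.

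In flies, the acetyltransferase CBP places H3K27ac, and the mark is mutually exclusive with the methylation that Polycomb proteins place on the same lysine. The X is also the chromosome of dosage compensation: in males the MSL complex binds active genes of the X and acetylates histone H4 at lysine 16, and transcription from their only X is raised. H3K27ac on the X is therefore usually read beside the autosomes. Here the arms 2L, 3L and 3R, cut back by the same 2 Mb at their centromere ends, served for that comparison; they held 3067 shared clusters in replicate 1 and 3089 in replicate 2. Every value below compares positions within the same libraries, and no test was made over 2 replicates; differences are set against the spread between the replicates.

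In replicate 1, 92.9% of the X clusters (95% Wilson interval 91.2 to 94.3) shared sequence with replicate 2, where all clusters of the list had 91.9%. In replicate 2 the share was 88.1% (86.1 to 89.9), where the whole list had 90.4%. Sharing was used to choose the members, so nothing is read from these percentages. The members were 1.37 to 57.5 kb wide by their mean over both replicates, with a median of 4.20 kb, and the middle 50% spanned 2.58 to 7.48 kb. Every one of the 955 members and 967 counterparts also met a cluster of the authors' list for the replicate set, as did all 3067 and 3089 shared clusters of the arms and 72 of 73 and 126 of 130 unshared clusters of the X. At the position limit, the last 2 members began at 20389418 and 20394816, with scores of 0.79 and 0.72 in replicate 1 and 1.03 and 0.77 in replicate 2. The first clusters beyond it began at 20526211 in replicate 1 (score 1.24) and 20526335 in replicate 2 (score 1.22). At the limit on overlap, the member from 5882790 to 5884628 shared 10 bp with its counterpart, which made it the least overlapping of all.

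The score of each cluster is the authors' own and is on a log2 scale, so that a difference of 0.17 is a factor of about 1.13 on the linear scale. The 10 highest-scoring members reached means of 2.14 to 2.41 over both replicates, against a median of 1.08 for all members. The highest lay from 3564785 to 3593718, scoring 2.39 in replicate 1 and 2.43 in replicate 2. It was not alone in its neighbourhood: the members from 3623213 to 3648243 (2.15 and 2.14) and from 3654122 to 3677979 (2.10 and 2.26) also ranked among the 10. The member from 11705646 to 11718875 scored 2.28 and 2.37, and that from 6742049 to 6774752 scored 2.29 and 2.35. Most of these regions were long domains, but 2 were compact. The member from 17550577 to 17556740 measured 6164 bp in replicate 1 and scored 2.21 and 2.35, and the member from 1902586 to 1910184 measured 7599 bp and scored 2.14 and 2.25. The remaining 3 were the domain from 12606642 to 12665187 (2.26 and 2.33), the member from 7582688 to 7605627 (2.22 and 2.34) and the member from 8301646 to 8317761 (2.06 and 2.22). Of the 10, 9 scored higher in replicate 2, as did 61.9% of all members. The SDs of these 10 over the replicates reached 0.12, more than any step between neighbours in this order, so the full order is not resolved. The member from 3564785 to 3593718 scored highest in each replicate.

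The widest members were not always the strongest. Of the 10 widest, 3 were also among the 10 of highest score, out of 955 members in all. The 10 widest still scored high. Their mean scores over both replicates ran from 1.47 to 2.41, against a median of 1.08 for all members. The domain from 12606642 to 12665187 was by far the widest, with 58546 bp in replicate 1 and 56419 bp in replicate 2. With neighbouring clusters less than 1 kb away it formed a run of 62.9 kb in replicate 1 and 62.8 kb in replicate 2, the longest on this stretch of the X. The member from 20349943 to 20384387 followed in width with 34445 and 35014 bp, yet its scores were 1.38 and 1.55. The member from 2527144 to 2561941 had almost the same width, 34798 and 34563 bp, and scored 2.04 and 2.05. Widths repeated well in these cases, but not where the calls broke a domain. The member from 4558164 to 4598983 measured 40820 bp in replicate 1, while its largest piece in replicate 2 measured 23422 bp; both lists gave the stretch from about 4558164 to 4602118 as 1 run of clusters under 1 kb apart, 44.0 kb long in replicate 1 and 43.8 kb in replicate 2. The other 6 of the widest members began at 14958927, 6742049, 3564785, 10618093, 9468762 and 2175779, and had mean widths of 27.5 to 30.8 kb. At the other end, 112 members were narrower than 2 kb by their mean width, and the highest of them scored 1.04 ± 0.18 (SD, n = 2) from 17796545 to 17798775. The next, from 8531639 to 8533736, from 537940 to 540055, from 8743107 to 8744472 and from 8751346 to 8752895, lay between 0.84 and 0.87. Most of these passed 2 kb in a single replicate. The highest scored 1.17 at 2231 bp in replicate 1 and 0.92 at 1404 bp in replicate 2. Those from 8531639 and 537940 measured 2098 and 2116 bp in replicate 1, and that from 8751346 measured 2210 bp in replicate 2.

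Shared clusters of the X were wider than those of the arms. Their median width was 3727 bp in replicate 1 and 3927 bp in replicate 2, against 3237 and 3238 bp on 2L, 3L and 3R together. The difference of 590 ± 141 bp (SD, n = 2; 589.5 before rounding) exceeded the spread between the replicates. The upper end differed most. Members of 10 kb or more made up 13.7% of the X clusters in replicate 1 and 14.2% in replicate 2, where 9.78% and 9.55% of the arm clusters and 9.07% and 8.77% of the whole lists were as wide. Clusters of 20 kb or more were 3.66% and 3.93% on the X and 1.73% and 1.68% on the arms. These long domains carried 40.9% and 41.2% of the sequence covered by shared clusters on the X when counted from 10 kb, and 32.0% and 31.5% on the arms. Shared clusters covered 26.9% and 27.7% of the stretch of the X and 21.4% of the arms in each replicate, a ratio of 1.27 ± 0.03. That ratio is the product of mean width, which was 1.20 ± 0.02 times that of the arms, and of the number of shared clusters per Mb, which was 1.06 ± 0.004 times. Choosing clusters by sharing ties the 2 counts together, so the SD of 0.004 is not a free measure of spread. Over all clusters, shared or not, the number per Mb was 1.04 and 1.09 times that of the arms (1.07 ± 0.03). Against 3L alone it was 1.01 and 1.07 times. The median width difference changed under a limit on score, to a value smaller than its SD and so without a resolved direction. When clusters under the 25th percentile of score of each list were left out, the X median minus the arm median was -112 ± 220 bp. One limit per list acts unequally on the X and the arms, because their scores differ. The 25th percentile of score of shared clusters was 0.79 and 0.81 on the X and 0.63 and 0.59 on the arms. The part of this in the change was not tested. In the replicate-set list the median width difference was 1378 bp among clusters that overlapped shared clusters of both replicates (5462 bp on the X, 4084 bp on the arms). Over that whole list the medians lay closer, at 3260 bp on the X and 2948.5 bp on the arms.

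At equal width, X clusters scored higher than arm clusters. Wider clusters score higher on every arm, with Spearman's rho across clusters of 0.78 and 0.79 on the X and 0.80 and 0.81 on the arms, so scores were compared within classes of width. No cluster was under 1 kb; the narrowest on these arms measured 1301 bp. In the class from 1 to 2 kb, the median score was 0.63 and 0.61 on the X and 0.49 and 0.45 on the arms. From 2 to 3 kb it was 0.84 and 0.86 against 0.72 and 0.67. From 3 to 5 kb it was 1.09 in each replicate against 0.91 and 0.88. The X stood above the arms in all 6 filled classes and both replicates, also at the wide end. From 5 to 10 kb the medians were 1.30 and 1.31 against 1.16 and 1.09, from 10 to 20 kb 1.48 and 1.52 against 1.37 and 1.33, and from 20 kb upwards 1.77 and 1.74 against 1.56 and 1.49. The differences by class, averaged over the replicates, ran from 0.15 ± 0.02 in the narrowest class to 0.23 ± 0.03 in the widest, with no steady order between.

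**Figure D1:**
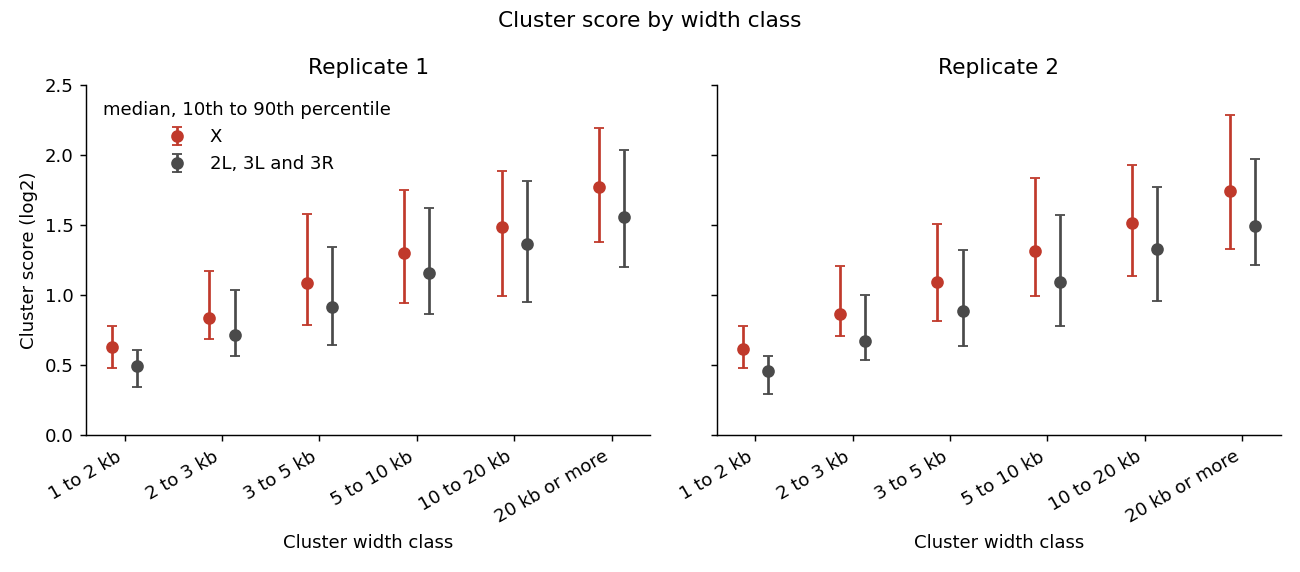
Median score (log2) of shared clusters by width class for the X (red) and for 2L, 3L and 3R together (grey), with bars from the 10th to the 90th percentile over clusters, in replicate 1 (left) and replicate 2 (right). The X median lies above the arm median in every class, for example at 0.63 against 0.49 in the narrowest class of replicate 1, while the ranges overlap.

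Averaged over the classes with the X class sizes as weights, the difference was 0.14 in replicate 1 and 0.20 in replicate 2, a mean of 0.17 ± 0.04, or a factor of 1.13 ± 0.03 on the linear scale. Against each arm alone it was 0.19 ± 0.04 for 2L, 0.15 ± 0.05 for 3L and 0.17 ± 0.04 for 3R. The arms differed far less among themselves. Set against the other 2 arms in the same way, 2L differed by -0.02 ± 0.004, 3L by 0.02 ± 0.01 and 3R by -0.004 ± 0.004. Of the X clusters, 716 of 955 in replicate 1 (74.97%, Wilson interval 72.1 to 77.6) and 804 of 967 in replicate 2 (83.1%, 80.7 to 85.4) scored above the arm median of their own width class, where the arm clusters themselves had 50.0% by construction. The highest 10.0% of scores in each list held 178 of the members (18.6%) in replicate 1 and 208 of their counterparts (21.5%) in replicate 2, and 8.74% and 8.03% of the arm clusters.

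The difference held along the whole score range, including its lowest part. With the 5th percentile of each width class in place of the median, the X was higher by 0.12 in replicate 1 and 0.18 in replicate 2; with the 95th percentile it was higher by 0.17 and 0.22. The lower edge was examined in 2 narrow ranges of width, picked after the values were seen. Among all clusters from 2.0 to 2.4 kb, shared or not, the lowest score on the X was 0.58 in replicate 1 (131 clusters) and 0.63 in replicate 2 (138 clusters). On the arms the lowest was 0.48 and 0.44, among 478 and 506 clusters. Thus 100 arm clusters of that width in replicate 1 and 282 in replicate 2 scored below every X cluster of the same width. Each arm showed the same edge, at 0.51, 0.48 and 0.50 in replicate 1 and 0.44, 0.45 and 0.44 in replicate 2 for 2L, 3L and 3R. Just under 2 kb, from 1.6 to 2.0 kb, lower scores were listed on the X, down to 0.21 and 0.34, and on the arms, down to 0.10 and 0.11. There, 7 arm clusters in replicate 1 and 68 in replicate 2 scored below every X cluster. The lowest score that entered a list at a given width was therefore itself higher on the X, by 0.10 and 0.19 just over 2 kb, sizes close to the median differences there (0.11 and 0.17). The sources used here do not give the threshold of the cluster calls, and its part in the higher scores of the X was not tested.

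The higher score at equal width was spread along the X and not carried by a few regions. In 20 full windows of 1 Mb, each with 28 to 58 members, the width-matched difference from the arms was above 0 in every window and both replicates. Window means over the replicates ran from 0.09 to 0.25, with a median of 0.19. The lowest was the window from 5000001 to 6000000 (0.05 and 0.14), and the highest the window from 1000001 to 2000000 (0.23 and 0.27). Of 68 arm windows treated alike, 31 were above 0 in both replicates, and their means ran from -0.10 to 0.16. The X and arm windows overlapped at their ends: 15 of the 20 X windows lay above the highest arm window, and 5 of the 68 arm windows lay above the lowest X window.

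**Figure D2:**
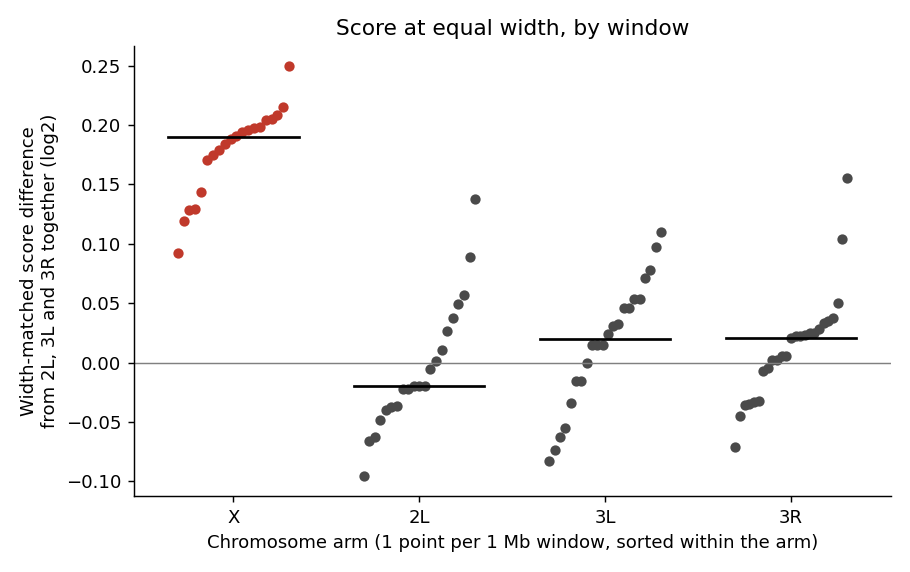
Width-matched score difference (log2, mean of both replicates) of 1 Mb windows from all clusters of 2L, 3L and 3R, by arm; each point is 1 window, sorted within its arm, and bars are medians. The 20 X windows lie between 0.09 and 0.25 and the 68 arm windows between -0.10 and 0.16.

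Coverage by clusters varied several-fold along the X. In 40 full windows of 500 kb it ran from 11.3% to 45.3% by the mean over replicates, with a median of 29.7%, against 22.9% for the 138 windows of the arms. The most covered windows were those from 6500001 to 7000000 (45.6% and 45.1%), from 17500001 to 18000000 (41.1% and 43.8%) and from 8000001 to 8500000 (41.0% and 42.7%). The least covered were those from 14000001 to 14500000 (11.8% and 10.8%), from 7000001 to 7500000 (10.9% and 12.4%) and from 9500001 to 10000000 (12.8% and 13.1%). The fullest window and one of the emptiest were thus neighbours, with 33 members starting in the window from 6500001 and 10 in the window from 7000001. Among the X windows, 5 of 40 reached 40% and none was under 10%, whereas 3 of 138 arm windows reached 40% and 6 were under 10%. Above the arm median lay 27 of the 40.

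**Figure D3:**
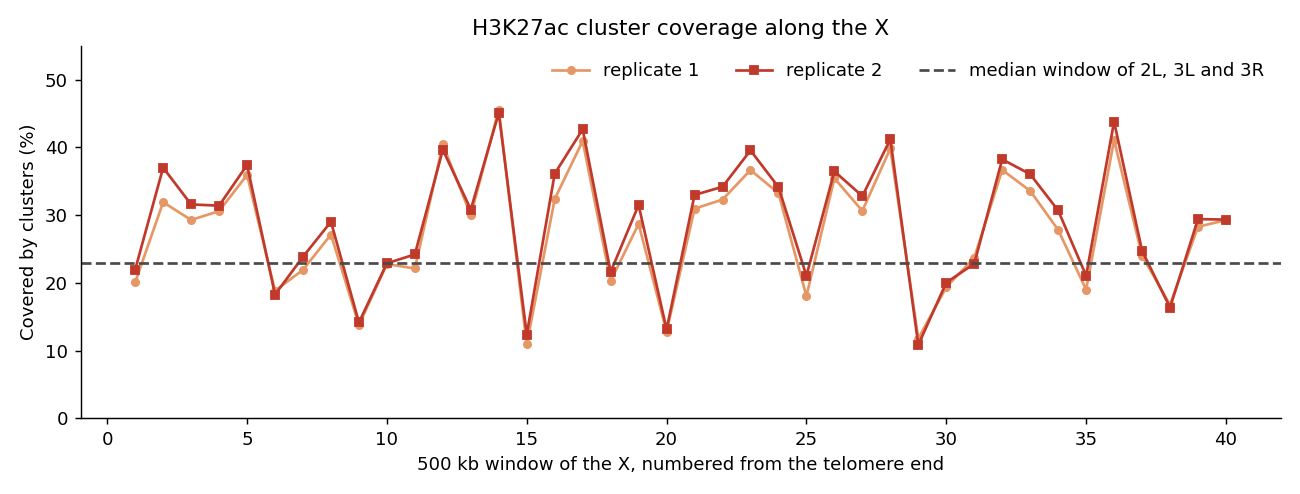
Share of each 500 kb window of the X covered by clusters (%), in replicate 1 (orange circles) and replicate 2 (red squares), with windows numbered from the telomere end and the arm median (22.9%) dashed. Windows range from 11.3% to 45.3% by their mean, and replicate 2 lies higher in 34 of 40 windows.

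Clusters of the X lay closer together. From each shared cluster to the nearer cluster of the same list, the median gap was 1840 bp in replicate 1 and 1416 bp in replicate 2 on the X, and 2212 and 2195 bp on the arms. A neighbour within 1 kb was present for 34.7% and 40.4% of the X clusters, for 29.3% and 29.8% of the arm clusters, and for 29.5% and 30.4% of all clusters of the lists. Gaps of 10 kb or more on the nearer side were fewer on the X, with 10.7% and 8.38% against 14.0% and 13.7%. At equal width the gap on the X, divided by that on the arms, was 0.81 in replicate 1 and 0.65 in replicate 2 (0.73 ± 0.11). It was below 1 in all 6 width classes and both replicates, from 0.57 to 0.88. The arms set against each other gave 0.95 ± 0.04 for 2L, 0.93 ± 0.02 for 3L and 1.13 ± 0.01 for 3R. Matching clusters for the gap as well as for width left the score difference of the X at 0.17 ± 0.04.

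**Figure D4:**
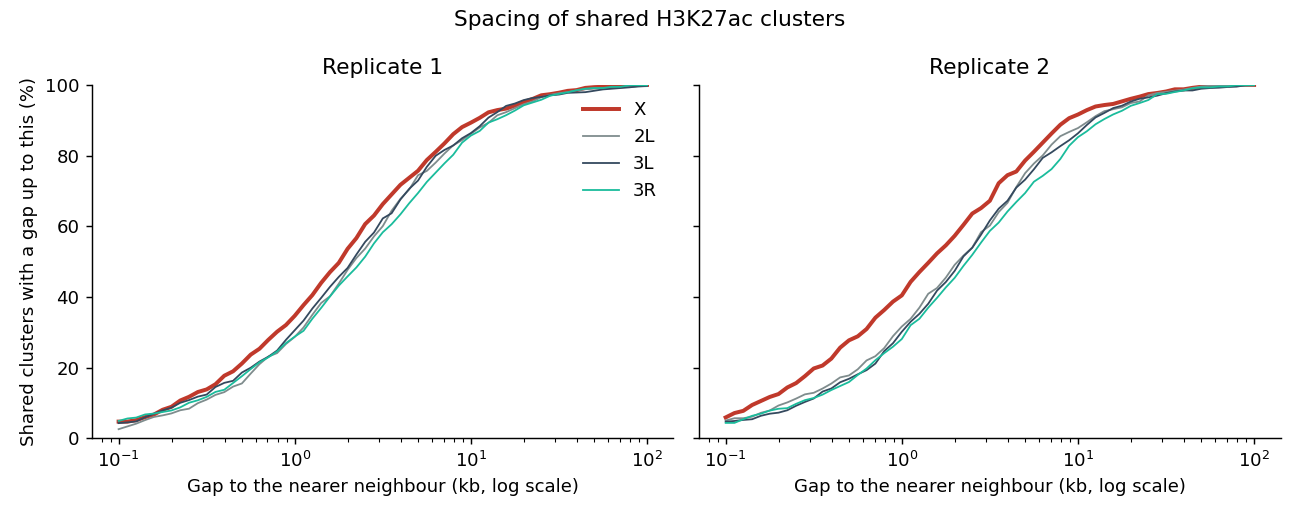
Cumulative share (%) of shared clusters by the gap to the nearer cluster of the same list (kb, log scale) on the X (red) and on 2L, 3L and 3R, in replicate 1 (left) and replicate 2 (right). At 1 kb the X curve stands at 34.7% and 40.4%, and the arms together at 29.3% and 29.8%.

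A few members stood far from any other cluster. They were ranked by the mean gap over both replicates. In a single list, the longest nearer gap of a shared X cluster was 88.9 kb in replicate 1 and 74.6 kb in replicate 2. By the mean gap, the most isolated member lay from 4734161 to 4736504 and scored 0.72 and 0.64. It had 65.8 kb to its nearer neighbour in replicate 1 and 66.0 kb in replicate 2. The member from 2781257 to 2783094 followed at 58.1 and 58.2 kb, with scores of 0.61 and 0.76. Isolation did not always go with a low score. The member from 16104613 to 16111090, 53.0 and 53.3 kb from its neighbours, scored 1.31 and 1.15, and that from 1666995 to 1670356, 48.3 and 47.3 kb away, scored 1.17 and 1.42. For the member from 11978489 to 11980433 the distance was 41.8 kb in replicate 1 and 54.9 kb in replicate 2, and its scores were 0.59 and 0.56.

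Replicate 2 held more clusters and higher scores on the X than replicate 1, with 1097 clusters against 1028. On the arms it held 3416 against 3353, and scores were lower. Clusters, shared or not, covered 27.5% of the X stretch in replicate 1 and 28.9% in replicate 2, and 22.1% and 22.3% of the arms. Coverage was higher in replicate 2 in 34 of 40 X windows of 500 kb and in 72 of 138 arm windows. From a member to its counterpart the median score difference was 0.04 on the X and -0.03 on the arms (-0.04 on 2L, -0.03 on 3L and -0.03 on 3R). Of the members, 591 (61.9%, Wilson interval 58.8 to 64.9) scored higher in replicate 2, against 39.4% (37.7 to 41.2) of arm clusters and 43.7% of all shared clusters of the list. The X lay above the arms in all 6 width classes, by 0.04 to 0.10, and its median difference was positive in 19 of 20 windows of 1 Mb, against 12 of 68 on the arms. Members also varied more between the replicates: the median absolute score difference was 0.11 on the X and 0.09 on the arms, and 75.3% of the members had exactly 1 partner each way against 84.6% of arm clusters. The 2 libraries stand for the replicates here, so the replicate and anything that differed between these libraries cannot be told apart.

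**Figure D5:**
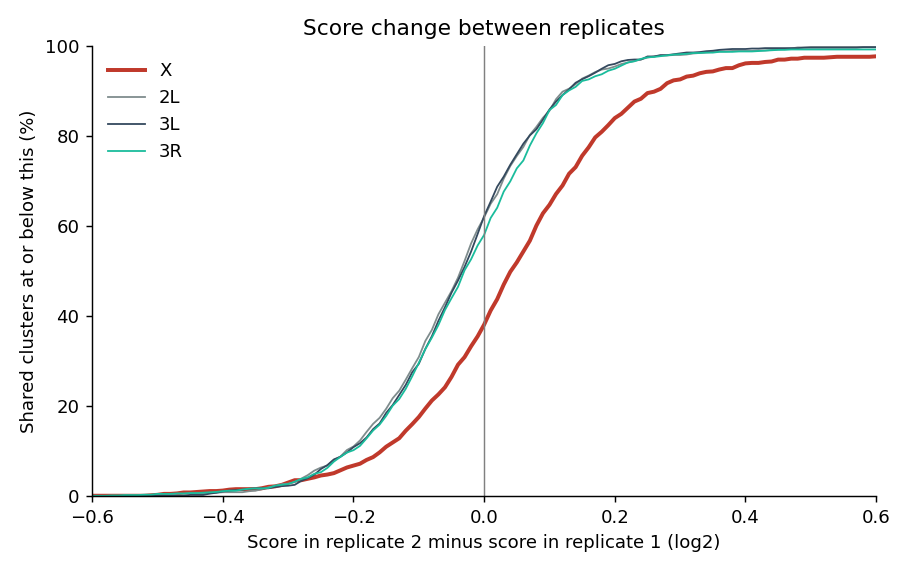
Cumulative share (%) of shared clusters by the score in replicate 2 minus the score in replicate 1 (log2), for the X (red) and for 2L, 3L and 3R. The median is 0.04 on the X and between -0.04 and -0.03 on the arms, whose 3 curves lie close together.

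Members with the largest differences between the replicates were listed in each direction. The 5 with the largest gain in replicate 2 were narrow pieces at the edge of a much wider cluster, and none was matched 1 to 1. From 16262510 to 16263897, a cluster of 1388 bp scoring 0.63 in replicate 1 met a cluster of 7525 bp scoring 2.02 in replicate 2. The others began at 380878, 1132574, 13181279 and 13705048, measured 1425 to 2235 bp in replicate 1 and met clusters of 10956 to 20753 bp. Of the 5 with the largest loss, 4 were matched 1 to 1, near the share among all members (75.3%). The member from 17753824 to 17756190 scored 0.99 in replicate 1 and 0.38 in replicate 2, and that from 14093359 to 14095845 scored 1.17 and 0.66. The member from 934073 to 937427 was the strongest of the 4, at 1.71 and 1.21, and that from 19100857 to 19103018 scored 0.98 and 0.48. The remaining one, from 6997311 to 7009311, was 1 cluster of 12001 bp in replicate 1 and 3 in replicate 2. Over the 719 members matched 1 to 1, the differences ran from -0.62 to 0.53 with a median of 0.03.

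Clusters of the X stretch found in 1 list alone were narrow. There were 73 in replicate 1 (7.10%) and 130 in replicate 2 (11.9%), with median widths of 1664 and 1719 bp. Their median scores were 0.68 and 0.74, above the 0.54 and 0.55 of such clusters on the arms. All shared X clusters, which were wider, had medians of 1.03 and 1.07. Shared X clusters of 1 to 2 kb had 0.63 and 0.61, so the unshared ones were not low for clusters of about that width. Widths were not matched exactly here. The highest in replicate 1 lay from 12144363 to 12145694 (score 0.97), from 19553979 to 19556055 (0.88) and from 10556840 to 10558929 (0.83). In replicate 2 they lay from 11902 to 13388 (1.16), from 17790155 to 17791555 (1.13) and from 13071310 to 13072708 (1.10). Each of these 6 had a counterpart in the replicate-set list. That list held 1253 clusters on the X stretch, of which 801 (63.9%) overlapped shared clusters of both replicates, against 69.8% on the arms. At equal width these 801 scored 0.16 above their arm counterparts, a factor of 1.12.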

How the data were processed

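For the 2 ChIP and 2 input libraries, the submitters' processing notes name Bowtie 0.12.7. The authors deposited enrichment clusters with positions on FlyBase release 5, per the file headers: 1 list per ChIP replicate and 1 for the replicate set. The sources used here do not give the caller, its thresholds or the formula of the score. Base 2 turned score differences into ratios of whole numbers (denominator up to 20000, relative tolerance 1e-12) for 100% and 99.97% of clusters of the replicate lists and 91.9% of the replicate set, and base e for 0.34%, 0.28% and 0.01%, so the deposited scores were read as log2. Read depth is unknown.

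Clusters starting within 2 Mb of the centromere end were left out on the X, 2L, 3L and 3R. Shared clusters overlap by at least 1 bp; each was compared with the counterpart sharing most bases. Gaps run to the nearest cluster of the same list. Width classes were under 1, 1 to 2, 2 to 3, 3 to 5, 5 to 10, 10 to 20 and 20 kb or more; class medians were averaged with X class sizes as weights, as logarithms for gap ratios. Windows were full ones only. Values are per replicate, with mean ± SD (n = 2); no test was made. Named members were the 10 highest and 10 widest, the 5 highest under 2 kb and the 5 most isolated, by means over both replicates. Also named were 5 each with the largest gain and loss, the 3 highest unshared clusters per list, and the 3 most and least covered windows. Members, classes and rules were chosen with earlier results of these data known. Alternatives were a 3 Mb limit, a stricter score, merging within 500 bp, 50% reciprocal overlap, other width matching and leaving out a replicate. Width matching was also run on simulated scores with a known shift on the X. Those scores had no lower edge like that of the lists, so the effect of that edge on the matching was not tested. Coordinates of the release 6 gene table were not used. Software was scipy 1.17.1, pandas 2.3.3, matplotlib 3.10.9 and numpy 2.4.6 under Python 3.11.15.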

Additional observations from a re-analysis of the deposited data

How the results depend on the processing

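Of 63 recomputed values, 49 moved by no more than a tolerance, 13 moved by more and 1 changed sign. The value that changed sign, a median width difference of -112 ± 220 bp, was smaller than its SD. The tolerance was the spread between replicates, with 2 exceptions. For the share of X clusters found again it was the Wilson interval. For the score change between replicates it was the spread of the difference over 2L, 3L and 3R (0.003). The 49 include the values with a replicate left out, which with n = 2 could not move by more than the spread between replicates. Leaving out clusters under the 25th percentile of score gave a median width difference of -112 bp in place of 590 bp (589.5), a width-matched score difference of 0.13 in place of 0.17, gap ratios of 0.57 (median gap to the next cluster, 0.78 before) and 0.52 (nearer neighbour at equal width, 0.73 before), and 17.4% of X clusters in the highest 10% of scores in place of 20.1%. Merging clusters within 500 bp gave a width difference of 854 bp and a width-matched gap ratio of 0.87. With 50% reciprocal overlap, 80.5% of X clusters were found again, the width difference was 754 bp, the score change between replicates differed from the arms by 0.067 in place of 0.076, and 22.5% of X clusters were in the highest 10%; with clusters matched 1 to 1 that change was 0.069. The replicate-set list was added after the data were seen, together with the use of all clusters and the matching on gaps. Its clusters that overlapped shared clusters of both replicates gave 1378 bp and 25.5%. The causes of these moves were not tested. With either replicate left out, the width difference was 490 to 689 bp, the score difference 0.14 to 0.20, the covered share 27.5% to 28.9%, the gap ratios 0.72 to 0.85 and 0.65 to 0.81, and the share in the highest 10% was 18.6% to 21.5%. The score difference at equal width stayed between 0.13 and 0.19 in every alternative that used both replicates. No paired analysis was possible because input libraries, although numbered like the ChIP libraries, have no values of their own here and no result comes from a test between groups. The effect of read depth on widths, gaps and cluster numbers was not tested, since depth is unknown.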
